A study of Mus musculus with 9 samples.

Results

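The genes described here build, attach, reshape and release the glycosylphosphatidylinositol (GPI) anchor in newborn mouse stomach. They were chosen by name, as 31 genes of the pathway, because 1 of them, Cwh43, was much higher in stomachs that lack C/EBPβ than in wild-type stomachs, which raised the question whether the rest of the pathway follows. All 31 have a probe on the array, and 29 passed the filter on dim probes, out of 21723 genes tested. The Cwh43 difference is therefore a description of why the set exists and carries no test. The other 30 genes entered by name, although results of these data were already known.

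The data are 9 Agilent 1-colour arrays, each of total RNA from 1 stomach of a mouse killed at birth. There were 5 C/EBPβ knockouts (KO 1 to KO 5) and 4 wild-type mice (WT 1 to WT 4), with no other allele and no agent in the labels. Strain, the part of the gene that was removed and whether mice were littermates are not given in the sources used here. A whole stomach is a mixture of cell types, so fewer cells of a type and less RNA per cell cannot be told apart. C/EBPβ, encoded by Cebpb, is a leucine zipper transcription factor.

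A GPI anchor is a glycolipid that tethers proteins to the outer face of the cell membrane. It is assembled step by step on phosphatidylinositol in the endoplasmic reticulum: a sugar is transferred and trimmed, mannoses and ethanolamine phosphates are added, and a transamidase exchanges the tail of a protein for the finished glycolipid. The lipid is then remodelled in the endoplasmic reticulum and the Golgi. In yeast, Cwh43 is the remodelling enzyme that places ceramide in the anchor lipid.

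The regions just upstream of 3 genes are shown because these genes mark the range of the set: Cwh43, Gpld1, whose difference was the largest in the other direction, and Dpm1, whose probe lies nearest to the deleted gene. Each is the 250 bases before the annotated start, 5′ to 3′ on the gene's strand, from RefSeq on build GRCm38.p6, with CpG dinucleotides in capitals. They lie at chr5:73405828-73406077 (plus strand), chr13:24942902-24943151 (plus strand) and chr2:168230380-168230629 (minus strand), in this order.
Cwh43: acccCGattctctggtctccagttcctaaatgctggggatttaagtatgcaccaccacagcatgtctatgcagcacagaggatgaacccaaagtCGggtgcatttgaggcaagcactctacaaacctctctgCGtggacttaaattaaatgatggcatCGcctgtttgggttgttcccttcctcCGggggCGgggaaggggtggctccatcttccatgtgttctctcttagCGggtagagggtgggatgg
Gpld1: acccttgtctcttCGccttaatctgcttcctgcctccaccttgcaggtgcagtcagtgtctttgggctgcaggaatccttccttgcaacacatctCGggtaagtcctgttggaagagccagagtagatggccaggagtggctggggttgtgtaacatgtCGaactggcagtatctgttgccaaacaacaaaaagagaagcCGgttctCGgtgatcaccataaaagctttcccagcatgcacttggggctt
Dpm1: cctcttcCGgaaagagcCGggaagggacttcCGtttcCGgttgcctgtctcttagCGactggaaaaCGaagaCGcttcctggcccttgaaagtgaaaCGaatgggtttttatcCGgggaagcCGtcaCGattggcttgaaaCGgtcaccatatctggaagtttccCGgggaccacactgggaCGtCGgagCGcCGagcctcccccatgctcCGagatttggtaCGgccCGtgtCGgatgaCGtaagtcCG
The Cwh43 window holds 7 CpG, the Gpld1 window 5 and the Dpm1 window 23. Of the 31 genes, 26 have a window in the RefSeq table (36 windows in all), and the richest window of each gene held a median of 17 CpG against 6 over 27025 genes. In 25 of the 26 the count was above 6, Gpld1 being the exception, and the highest was 38 for Pigp. Cwh43 was the second lowest, and 54.5% of all genes hold as few CpG or fewer. The letters TTGCNNAA, a form of the palindrome that C/EBP proteins bind, searched on both strands, were in 9.56% of all 32851 windows. They were in the windows of Gpld1, starting at base 177, and Pigu, and not in these 250 bases before Cwh43.

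The arrays differed in brightness, with a 75th percentile of spot signal between 221 (WT 4) and 472 (KO 3). WT 4 stood apart: its mean correlation with the other wild-type arrays was 0.950 against 0.973 to 0.976 for theirs, its summed squamous forestomach markers were the lowest of the wild-type arrays and its pancreas sum the highest of all 9. The arrays lay on 4 slides. Slide 1 held KO 4, KO 5, WT 3 and WT 4, slide 4 held KO 2, WT 1 and WT 2, and KO 3 and KO 1 each lay on a slide of their own. KO 2, KO 4 and KO 5 lacked the signal of the Y-linked genes Ddx3y and Eif2s3y that the other 6 arrays had, so the wild-type group held no such mouse. Levels below are log2 signals from which the 75th percentile of the same array was subtracted, and they compare arrays for 1 gene and not 1 gene with another. Cebpb itself had levels of −2.74, −2.87, −1.58, −2.04 and −1.68 in KO 1 to KO 5 and of 3.71, 3.21, 3.28 and 3.00 in WT 1 to WT 4. The difference of −5.48 was the largest fall of all genes tested.

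Cwh43 was higher in every knockout stomach. Its levels were 0.89, 0.72, 0.70, 1.51 and 0.46 in KO 1 to KO 5 and −1.75, −1.50, −1.98 and −1.28 in WT 1 to WT 4. The groups are separated by a wide gap, with KO 4 the highest array and WT 3 the lowest. The means were 0.86 ± 0.39 (SD, n = 5) and −1.63 ± 0.31 (SD, n = 4), a difference of 2.48 ± 0.23 (SE, 95% confidence interval 1.97 to 3.00), or 5.60-fold. By size of rise it ranked 18 of 21723 genes. Its single probe was well above background on all 9 arrays, lies on mm9 at chr5:73844293-73844352 (plus strand), and opens with these 30 of its 60 bases.
Cwh43 probe: cacccatcattttcacatgaatacacccaa
The difference was 2.61 within slide 1 and 2.35 within slide 4, and 2.60 without WT 4. Markers of gastric pit cells, the mucous cells of the stomach surface, stand beside it. Of 8 tested, 8 had a difference above 0, against 50.9% of all genes, with a median of 1.12, from 0.08 for Tff1 to 1.83 for Gkn1. Past the test, which 0.203% of all genes passed, was 1 of them, Gkn2 (1.77 ± 0.25 SE, limma adjusted p = 0.0281). Gkn2 lost the call with slide as a block (limma adjusted p = 0.310) and in 6 of 9 fits without 1 array. The mean level of the 8 markers ran from 3.23 to 3.93 in KO and from 2.15 to 3.13 in WT, so the groups were apart, with WT 4 the highest wild type. The log2 of their summed signal ran from 10.20 to 10.86 in KO and from 9.76 to 10.60 in WT, where WT 4 again was the highest and the only one to overlap. Of 7 genes listed for the glandular stomach, 5 were above 0 (Tff2, Muc6, Atp4a, Atp4b and Pgc) and 0 passed. Those below 0 were Barx1 (−0.04) and Sox2. Tff2, a mucous neck peptide, was higher in every KO than in any WT array, by 0.65 ± 0.17 (SE, limma adjusted p = 0.294). Sox2, a transcription factor of the foregut, was lower in every KO, by −1.04 ± 0.18 (SE, limma adjusted p = 0.0701). The mucin gene Muc6 differed by 1.01 ± 0.31 (SE, limma adjusted p = 0.387), with overlap. The part of these cells in the Cwh43 difference was not tested.

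The other genes grouped with Cwh43 under remodelling were measured as well. Pgap1 removes an acyl chain from the inositol, and Pgap2 and Pgap3 exchange a fatty acid of the anchor in the Golgi. All 3 had differences below 0, and 0 of 3 passed the test. Pgap1 had levels of −2.30, −2.42, −2.63, −2.32 and −2.21 in KO 1 to KO 5 and of −2.63, −2.02, −1.71 and −2.06 in WT 1 to WT 4. The groups overlap, since the lowest array of each was near −2.63. The difference was −0.27 ± 0.19 (SE, limma adjusted p = 0.776). Pgap2 was read at 3.14, 2.96, 3.16, 2.31 and 3.09 in KO and at 3.14, 3.19, 2.85 and 3.57 in WT, with KO 4 below all others. Its difference was −0.26 ± 0.22 (SE, limma adjusted p = 0.824). Pgap3 ran from 1.84 to 2.18 in KO and from 1.91 to 2.47 in WT, a difference of −0.10 ± 0.16 (SE, limma adjusted p = 0.937). The intervals of all 3 lay within 1 log2 unit of 0.

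**Figure D1:**
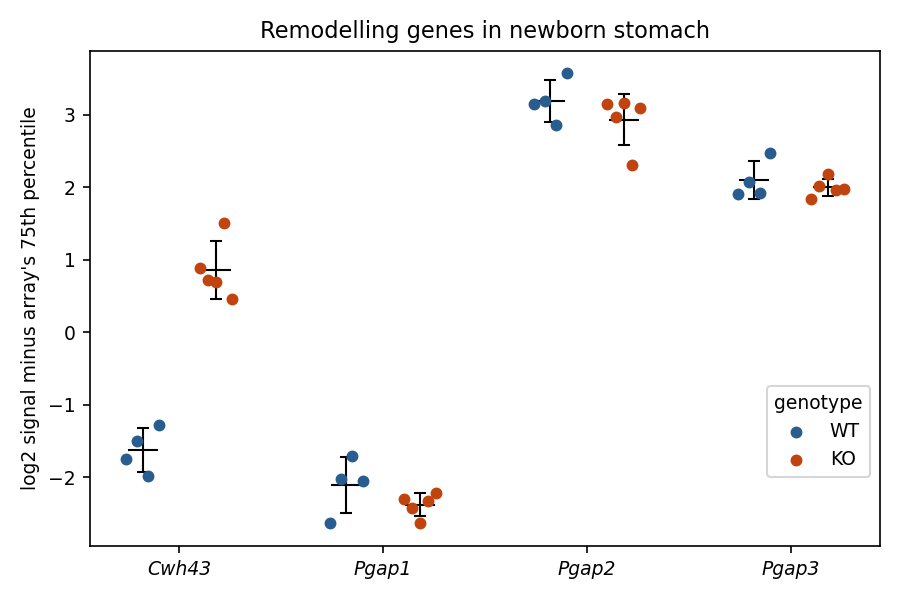
Levels of the 4 remodelling genes on each array (y axis, log2 signal minus the array's 75th percentile). Points are arrays, bars are the mean ± SD of 4 WT and 5 KO arrays. The Cwh43 groups are apart by 2.48 on average, and those of Pgap1, Pgap2 and Pgap3 overlap. Levels of different genes are not comparable.

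Across the whole pathway, Cwh43 is left aside here, since the set was chosen for its rise and its own call is no result. The threshold was adjusted p below 0.05, which 0.203% of all genes passed (0.124% higher and 0.0783% lower). Of the other 28 tested, 0 passed, 11 had a difference above 0 and 17 below, against 50.9% of all genes above 0. On the 1 probe used per gene, none of the 28 reached an unadjusted p below 0.05, against 8.73% of all genes. In none did the groups separate on that probe, against 3.38% of all genes (2.31% higher and 1.08% lower). Their median difference was −0.058 and the median over all genes was 0.0049. The median size regardless of sign was 0.145 against 0.183 over all genes. For 23 of the 28 the 95% interval of that probe lay within 1 log2 unit of 0. At this number of arrays a 2-fold change could not be left out for Pigc, Pign, Pigt, Gpaa1 or Gpld1. Nor could it for Pigp and Dpm1 by their dimmer probes, whose intervals ran from 0.77 to 1.76 and from −0.20 to 1.27. The dimmer probes of Pigp and Pigt had intervals above 0, and that of Pigp separated the groups, as described below. Too dim to test were 2 members. Pigb, a mannosyltransferase, was well above background on 0 of 9 arrays, and Pigw, the inositol acyltransferase, was so on KO 5 alone.

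**Figure D2:**
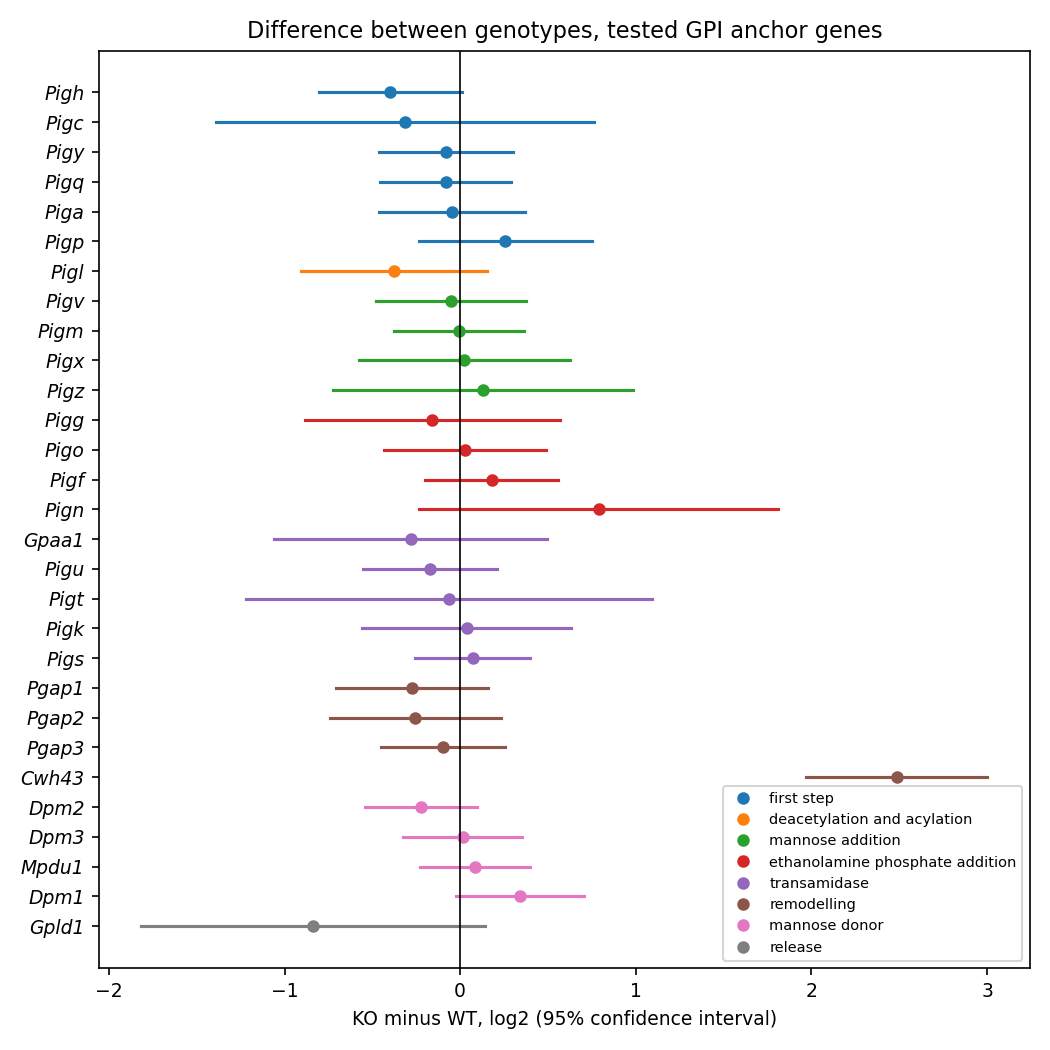
Differences KO minus WT of the 29 tested genes (x axis, log2), grouped and coloured by role. Points are limma estimates from 1 probe per gene, the brighter where there are 2, and lines 95% confidence intervals. Cwh43 lies at 2.48 and the 28 others between −0.84 and 0.79, each with an interval that includes 0.

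The first step, transfer of N-acetylglucosamine to phosphatidylinositol, is made by a complex whose catalytic subunit is Piga, with Pigc, Pigh, Pigp, Pigq and Pigy. Of these 6, 1 was on the higher side and 5 on the lower, with 0 past the test and a median of −0.083. Pigh had the smallest p of the 28. Its levels were −1.74, −1.63, −2.26, −1.56 and −1.94 in KO and −1.59, −1.21, −1.30 and −1.62 in WT, so KO 4 overlapped with the wild types. The difference was −0.40 ± 0.18 (SE, limma adjusted p = 0.583). The X-linked Piga ran from 0.08 to 0.69 in KO and from 0.15 to 0.80 in WT, a difference of −0.05 ± 0.19 (SE, adjusted p = 0.977). Pigc was read at −0.19, −0.70, −2.30, −1.84 and −1.70 in KO and at −1.46, −1.36, −1.46 and 0.14 in WT. KO 1, KO 2 and WT 4 were high and the rest low, in both groups. The probe named Pigy on the array carries an accession that RefSeq now lists as Pyurf, a gene whose human transcript also encodes Pigy. It differed by −0.08 (adjusted p = 0.953). RefSeq gives Pigy as an older name of Pigyl, whose probe, not a member here, differed by 0.27 ± 0.16 (SE, 95% confidence interval −0.09 to 0.63). With that probe the first step would count 2 higher and 4 lower.

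Pigl, which removes the acetyl group in the following step, was well above background on 4 KO and 2 WT arrays. It ran from −4.39 to −3.41 in KO and from −3.96 to −3.26 in WT, a difference of −0.38 ± 0.24 (SE, adjusted p = 0.741). The tested mannosyltransferases and their helper had estimates near 0, with unlike precision, and Pigb was too dim to test. Pigm, which adds the first mannose, differed by −0.01, its stabilising partner Pigx by 0.02, Pigv, which adds the second, by −0.05, and Pigz, which adds the fourth, by 0.13. Of these 4 tested genes, 2 were higher, 2 lower and 0 passed.

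Ethanolamine phosphate is added by Pign to the first mannose, by Pigo to the third and by Pigg to the second, with Pigf as the partner of Pigo and Pigg. Of these 4, 3 were on the higher side, 1 on the lower and 0 passed, with a median of 0.10. Pign had the highest difference of the 28. Its levels were 3.17, 2.63, 2.33, 1.70 and 1.79 in KO and 0.38, 1.76, 1.28 and 2.72 in WT. KO 1 was the highest array and WT 1 the lowest, and WT 4 lay above every KO array except KO 1. The difference was 0.79 ± 0.46 (SE, limma adjusted p = 0.703), and it was −0.26 within slide 1 and 1.56 within slide 4. A second Pign probe, well above background on 3 arrays and so not tested, differed by 0.12. The tested Pign probe holds a CA repeat, shown here in capitals from base 11 of 60.
Pign probe: CACACACACACACAcattgcacttgcacat
Other transcripts with such a repeat could bind it, which was not tested.

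The transamidase that joins protein and anchor consists of the catalytic Pigk with Gpaa1, Pigs, Pigt and Pigu. Of these 5, 2 were on the higher side, 3 on the lower and 0 passed. Pigt read 2.40, 4.78, 2.16, 2.16 and 2.47 in KO and 2.22, 2.92, 3.23 and 3.07 in WT. KO 2 stood far above every other array, and the difference was −0.07 ± 0.52 (SE, adjusted p = 0.990). This probe opens with a G-rich stretch, in capitals from base 2 of 60.
Pigt probe: GGGGTGGGGTGGGGGtgagtgtctgtgaac
Gpaa1 differed by −0.28 ± 0.35 (SE), Pigu by −0.17 ± 0.17 (SE), Pigk by 0.04 and Pigs by 0.07.

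The mannoses come from dolichol phosphate mannose, made by Dpm1 with its subunits Dpm2 and Dpm3 and used with the help of Mpdu1. Of these 4, 3 were on the higher side, 1 on the lower and 0 passed. Dpm1 had levels of 1.44, 1.64, 1.99, 1.49 and 1.97 in KO and of 1.42, 1.47, 1.34 and 1.23 in WT. KO 3 and KO 5 were the highest and KO 1 lay among the wild types. The difference was 0.34 ± 0.16 (SE, limma adjusted p = 0.606). On mm9 the Dpm1 probe lies 0.52 Mb from the Cebpb probe on chromosome 2, so the deleted allele and the DNA around it cannot be told apart as far as this gene goes. Pigt lies 3.18 Mb, Pigu 12.41 Mb and Dpm2 135.09 Mb from it. Dpm2 differed by −0.22 ± 0.14 (SE), Dpm3 by 0.01 and Mpdu1 by 0.08.

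Gpld1, a phospholipase that cuts GPI anchors and is known as a plasma enzyme made in liver, had the largest difference below 0. Its levels were −1.49, −2.64, −3.04, −2.78 and −4.20 in KO and −2.20, −1.76, −1.80 and −2.22 in WT. KO 1 was the highest array of all and KO 5 the lowest, so the groups overlap. The difference was −0.84 ± 0.44 (SE, limma adjusted p = 0.645), and it was −1.15 with slide as a block and −0.21 with the Y-linked level in the fit. A second Gpld1 probe, well above background on 1 array and so not tested, differed by −0.10. Summed liver markers (4 of 4 tested) ran from 3.57 to 4.93 on the log2 scale in KO and from 3.07 to 4.61 in WT, and their part in Gpld1 was not tested.

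**Figure D3:**
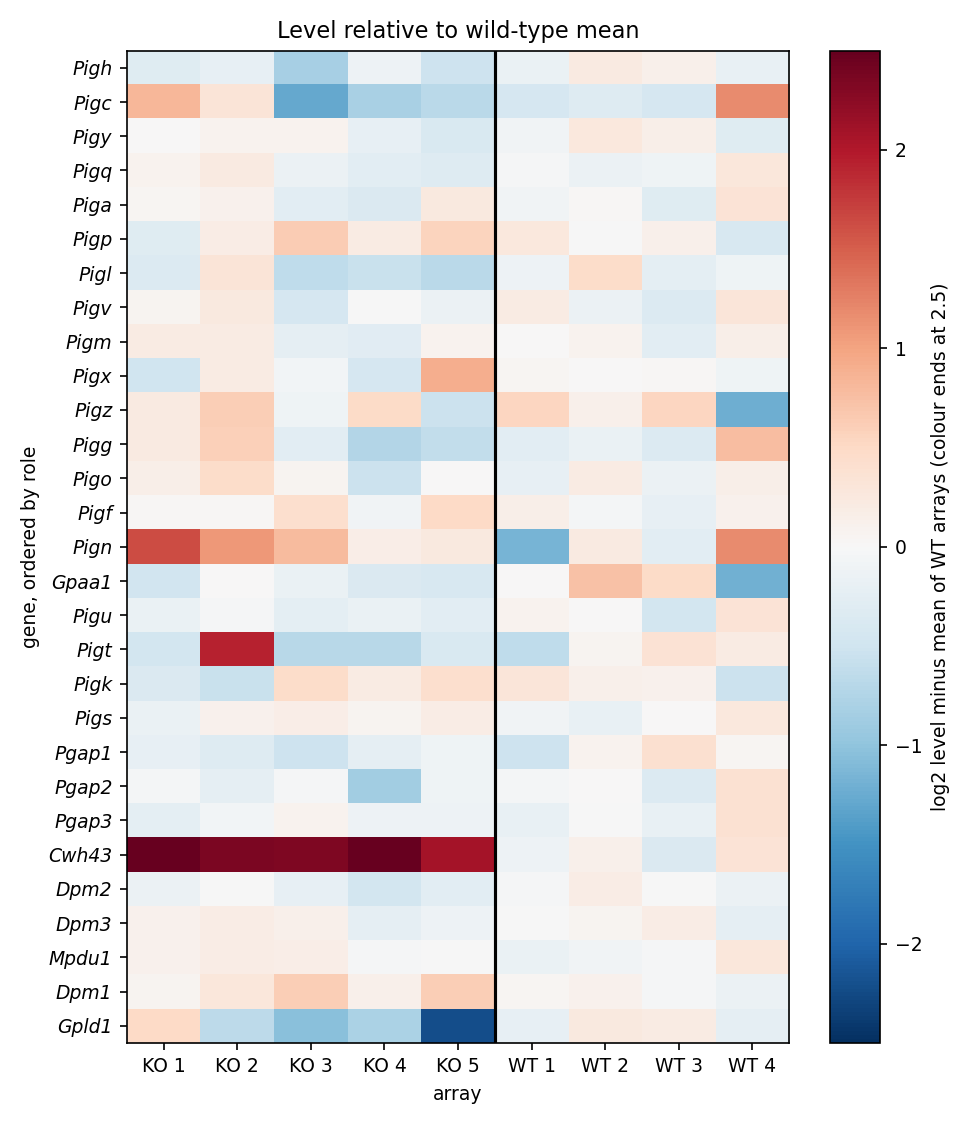
Level of each tested gene (rows, by role) on each array (columns) minus the mean of the 4 WT arrays, in log2 units, red higher and blue lower. Cwh43 is high in all 5 KO arrays, and KO 2 stands out for Pigt and KO 5 for Gpld1. WT 4 departs from the other WT arrays for Pigc, Pigg, Gpaa1 and Pigz. For Pign the WT arrays are spread, with WT 1 low and WT 4 high.

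Among the tested genes, 6 have 2 probes above background, and the pairs did not all give the same picture. Pigp, the small subunit of the first enzyme, is read by a brighter probe at chr16:94586203-94586262 and a dimmer one at chr16:94580645-94580704 (mm9, minus strand), designed on different transcript records. Their first 30 bases are shown because the pair disagree.
Pigp brighter probe: ctgtgtataaacatcctaaaaccagtcatt
Pigp dimmer probe: tatcgaggtcttcatttgcggctctcaaaa
The brighter probe read 1.88, 2.35, 2.81, 2.38 and 2.72 in KO and 2.43, 2.17, 2.30 and 1.78 in WT. These overlap, with a difference of 0.26 ± 0.22 (SE). The dimmer probe read −2.47, −2.18, −2.29, −2.38 and −2.04 in KO and −3.50, −3.54, −4.12 and −2.98 in WT. Every knockout array lay above every wild-type array, by 1.26 ± 0.22 (SE) on average or 2.40-fold, and by 1.34 within slide 1 and 1.34 within slide 4. In a fit of every kept probe on its own, added after seeing the data, it did not pass (limma adjusted p = 0.0906, with 0.139% of 30190 probes called and 2.01% separated on the higher side). It was well above background on 5 KO and 3 WT arrays, WT 3 being the one below. The difference between the 2 probes was not tested. The other 5 pairs gave −0.07 and 0.59 for Pigt, 0.34 and 0.53 for Dpm1, −0.26 and −0.33 for Pgap2, 0.08 and 0.13 for Mpdu1 and 0.02 and −0.16 for Pigx, brighter probe first, with 0 called. The dimmer Pigt probe had an interval from 0.04 to 1.14 (limma adjusted p = 0.584), and the Pigx probes differed in sign.

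**Figure D4:**
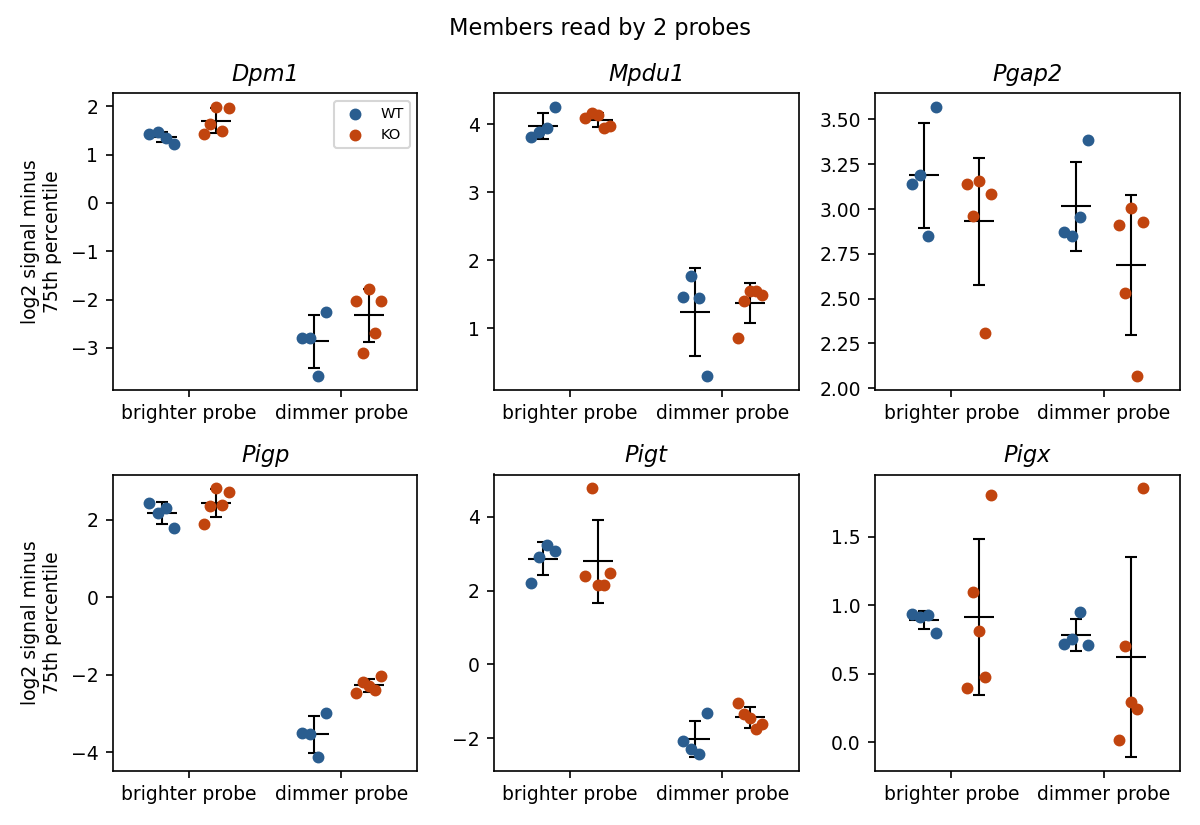
Levels of the 6 genes with 2 kept probes (y axes, log2 signal minus the array's 75th percentile, scaled per panel). Points are arrays and bars the mean ± SD of 4 WT and 5 KO arrays. The groups separate for the dimmer Pigp probe and overlap for the 11 others.

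The other 28 genes were also read within the 2 slides that hold both genotypes. Slide 4 has KO 2 as its 1 KO array, so slide and mouse cannot be told apart there, and no test of slide was made. Slide 1 holds WT 4, the array that stood apart. Within slide 1 (2 KO, 2 WT), 6 were higher and 22 lower, beside 46.7% of all genes higher. The median was −0.187 against −0.040 over all genes. Within slide 4 (1 KO, 2 WT), 19 were higher and 9 lower, beside 55.6% of all genes higher. The median there was 0.146 against 0.059 over all genes. The sign was opposite between slides for 17 of 28, a share that was not counted over all genes. Pigp, Pigx, Pigz and Dpm1 were higher in both, and Pigh, Pigu, Pgap1, Pgap2, Gpaa1, Dpm2 and Gpld1 lower in both. Pigt ranged most, from −0.84 on slide 1 to 2.22 on slide 4.

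**Figure D5:**
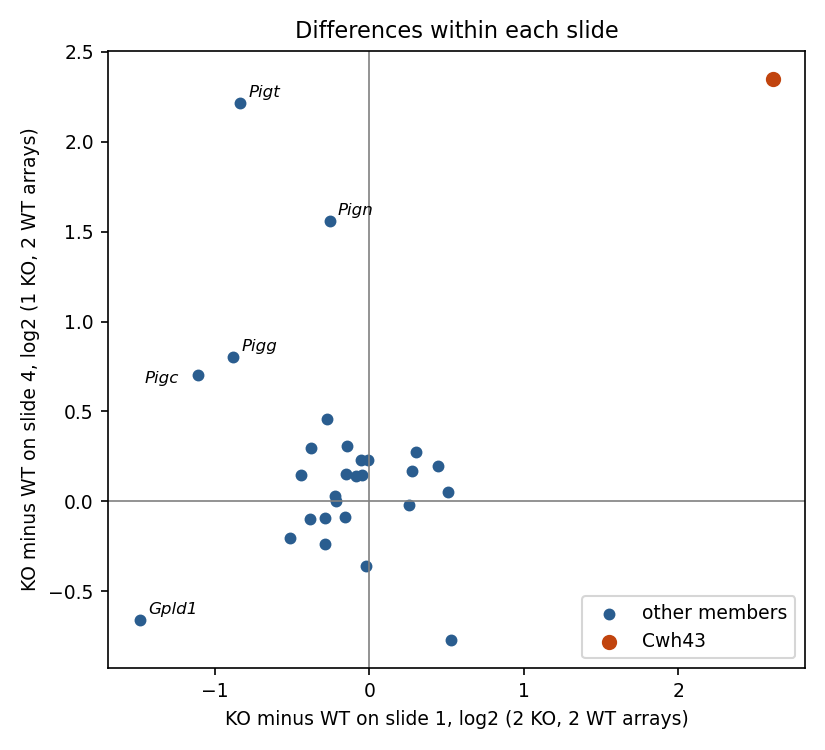
Difference KO minus WT within slide 1 (x axis) and within slide 4 (y axis), in log2 units, for the 29 tested genes. Cwh43 lies at 2.61 and 2.35, far from the rest, and 17 of the 28 others have opposite signs on the 2 slides. That share was not counted over all genes.

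Genes next to the pathway were read from 4 lists. Later remodelling, transport and release genes (14 of 14 tested) had 8 on the higher side and 6 on the lower, a median of 0.035 and 0 past the test. The smallest p were those of Pgap6, a GPI-specific phospholipase, at 0.44 ± 0.22 (SE, adjusted p = 0.620) and Gdpd5, which releases GPI-anchored proteins, at 0.32 ± 0.17 (SE, adjusted p = 0.662). Genes of dolichol and of the N-glycan precursor, only some of which draw on the same mannose donor, made up the next list. Of 21 listed, 21 were tested, 6 higher and 15 lower, with a median of −0.077 and 0 past the test. Among them Alg12, a mannosyltransferase, differed by −0.65 ± 0.26 (SE, adjusted p = 0.518) and Alg8, a glucosyltransferase, by −0.31 ± 0.15 (SE, adjusted p = 0.618).

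Ceramide synthesis genes were read because of the yeast role of Cwh43. Of 12 listed, 11 were tested, 6 on the higher side and 5 on the lower, with a median of 0.0065, a mean of −0.066 and 0 past the test. Without WT 4 the median was −0.191. At an unadjusted p below 0.05 were 3 of the 11, beside 8.73% of all genes. Degs1, a dihydroceramide desaturase, differed by −0.43 ± 0.16 (SE, adjusted p = 0.478) and the ceramide synthase gene Cers6 by −0.54 ± 0.21 (SE, adjusted p = 0.509). The third was Degs2, the other desaturase gene, at 0.44 ± 0.19 (SE, adjusted p = 0.557). Of 84 genes for proteins that carry a GPI anchor, 72 were tested, 45 on the higher side and 27 on the lower, with a median of 0.086 and 0 past the test. At an unadjusted p below 0.05 were 8 of the 72, beside the 8.73% of all genes given above. Nt5e, the cell surface enzyme that makes adenosine from AMP, was higher in every KO than in any WT array by 0.88 ± 0.22 (SE, limma adjusted p = 0.264), and without WT 4 it passed at 1.09 ± 0.17 (SE, limma adjusted p = 0.0326), in a fit that called 161 of all genes against 44. Cntn3, a neural adhesion protein, was likewise separated, by 0.55 ± 0.14 (SE, limma adjusted p = 0.264). These 2 of 72 stand beside the 2.31% of all genes that were separated on the higher side.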

How the data were processed

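Each array gave 1 colour (Cy3) from 0.3 µg of total RNA. Per the file headers, the authors made the spot intensity values with Agilent Feature Extraction 10.5.1.1, protocol GE1_107_Sep09, as background-subtracted processed signal not normalized between arrays. The submitters' processing notes name version 9.1. The deposited flags (well above background, outlier, control) are another kind of value per spot. The authors' series matrix holds log2 values, whose differences between arrays follow the processed signal. What they are centred on is unknown. Its column medians were 0.0436, 0.217, −0.124, 0.0347 and −0.137 in the knockouts and −0.279, −0.161, 0.224 and 0.381 in the wild types, in order of replicate.

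The log2 signal minus the array's 75th percentile was analysed for the 30190 probes that 4 or more of the 9 arrays read well above background, 1 probe per gene (the highest mean), after outlier and control spots were left out and spots of a probe averaged. Per array 50.9% to 57.2% of spots were well above background and 0 saturated. Differences were fitted with limma 3.58.1 (lmFit, eBayes, two-sided) in R 4.3.3, with Benjamini-Hochberg adjustment over 21723 genes. The number of arrays limits the precision. The steps were tested on simulated data.

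Gene names are those of the design, updated through accessions of the RefSeq table of GRCm38.p6 (26762 probes matched, 2878 renamed). Probe positions are those of the design on mm9, and exon or UTR was not analysed here. The source label calls the mice old, whereas protocol and design place them at birth. The labels number separate mice. The members and lists were chosen with earlier results of these data known. Named are all members, Cebpb, pit and sex markers, and of each neighbouring list the 2 genes with the smallest p. Named beyond this rule are Degs2, the 7 genes of the glandular list, and Pigyl. Gkn2 is the pit marker past the test. Same-numbered KO and WT arrays deviated together with correlations from −0.482 to 0.153. The best-matching wild type bore the same number for KO 2 and KO 3 and another number for KO 1 and KO 4. These values cannot show whether mice were paired, and the labels give no pairing.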

Additional observations from a re-analysis of the deposited data

Results flagged for a closer look

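In 5 of 58 groups of arrays looked at (29 genes in 2 genotypes), the gap between 1 array and the nearest of its genotype was large against the whole range of that genotype, and chance gives about 1 in 20. WT 4 was that array in 3 of them. Pigc was 0.139 on WT 4 against −1.36 on the nearest wild type, Pigg was −0.410 against −1.34, and Pigx was 0.794 against 0.910, a small gap that stood out because the other three lay close together. Pigt was 4.78 on KO 2, the next knockout being at 2.47. Pgap2 was 2.31 on KO 4, the next being at 2.96. Their causes were not tested.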

How the results depend on the processing

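Cwh43 stayed higher in knockouts under every alternative fitted, between 1.93 with normexp and quantile normalization and 2.58 with replicate block, and between 2.32 and 2.60 without 1 array each. It was 2.51 with slide block, 2.58 with replicate block and 2.43 with the Y-linked level in the fit. The count of members past the threshold, which is Cwh43 and carries no test here, was 0 in place of 1 in these 3 fits. The count over all genes went from 44 to 5, 4 and 4 in them, to 22 with no filter on dim probes, and to between 11 (without WT 1) and 161 (without WT 4) when 1 array was left out. It was 28 without KO 2, 18 without KO 3, 23 without KO 4, and 17 without WT 2 or without WT 3. The other 28 members had 0 past the threshold throughout, the lowest adjusted p being 0.150. Of them 17 kept their sign in all 10 settings that leave out no array by name, and 14 also when 1 array was left out. In replicate block KO 5, and in slide block KO 1 and KO 3, add nothing to the difference, and Pigl was not tested with the filter on all arrays. Median centring moved the median of all genes to 0.0725, and 15 of the 28 were then above 0 with a median of 0.0097. Without WT 4, 15 were above 0 with a median of 0.0083. Within slide 1 their median was −0.187 with 6 higher, beside 46.7% of all genes. Within slide 4 their median was 0.146 with 19 higher and 9 lower, beside 55.6% of all genes higher. When 1 array was left out the ceramide median ran from −0.191 (without WT 4) to 0.0515 (without WT 2), and in the other fitted settings from −0.045 to 0.083, and 1 gene for a GPI-anchored protein passed without WT 4. The labels give no pairing by replicate number. Replicate block added no call among the other members and the 4 neighbouring lists. They had 0 calls to lose in the main fit, and this block called 4 genes in all. The unchanged calls therefore cannot show whether pairing matters. The pit cell marker Gkn2, read this way after seeing the data, stayed between 1.62 and 1.96 and passed in 6 of 10 settings with no array left out and in 3 of 9 with 1 left out, and in neither block. These causes were not tested. Probes not far above background, such as that of Pigl, limit what can be read.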
